A study of Mus musculus with 12 samples.

Results

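The tricarboxylic acid cycle of the mitochondrion oxidises acetyl groups to carbon dioxide and hands their electrons to the respiratory chain. In macrophages that meet bacterial lipopolysaccharide (LPS), the enzyme ACOD1 (also called IRG1) diverts cis-aconitate, an intermediate of the cycle, to itaconate. Itaconate competes with succinate at succinate dehydrogenase and modifies cysteines of several proteins, and it is among the best known products of activated mouse macrophages. The 9 genes described here are Acod1 and 8 genes for enzymes of the cycle or their counterparts: the NADP-dependent isocitrate dehydrogenases Idh1 (cytosol) and Idh2 (mitochondrion), the 3 subunits of the NAD-dependent mitochondrial isocitrate dehydrogenase (Idh3a, catalytic, and Idh3b and Idh3g), Ogdh (E1 subunit of the 2-oxoglutarate dehydrogenase complex), Fh1 (fumarase) and Mdh2 (mitochondrial malate dehydrogenase). They were chosen by gene symbol, with earlier results of these data known, and no measured value enters the rule. All 9 were found by Ensembl identifier among the 46078 identifiers of the count tables, and all 9 passed the filter on low counts.

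RNA was sequenced from bone marrow-derived macrophages of male C57BL/6 mice in 12 libraries, 3 in each of 4 groups. Bone marrow cells were grown for 7 days in medium conditioned by L929 cells, a mouse fibroblast line that secretes macrophage growth factors. All cells then received diluted ethanol overnight, followed by 6 h of PBS (vehicle) or of LPS at 100 ng/ul, the dose and unit as labelled. The Dicer KO donors were LysMcre/+;Dicerfl/fl;ApoE-/-, so that Cre recombinase made from the lysozyme M locus, which is active in myeloid cells, removes Dicer, the nuclease that cuts microRNA precursors. Control donors were litter mates described as LysMcre/+;Dicer+/+;ApoE-/-. By their labels every donor, controls included, lacked apolipoprotein E, and every library comes from cells that had been given ethanol. The labels do not tell if the 3 libraries per group are from different mice or culture dishes, so the p-values below measure the spread between these libraries, which may be technical.

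The libraries held 16172600 to 18886948 counts in genes. Dicer1 measured 42.6 to 52.5 CPM (counts of a gene scaled to a common library size) in the 6 control libraries and 14.3 to 20.1 CPM in the 6 Dicer KO libraries. Lyz2, the gene that carries the LysM-Cre insertion, measured 3891 to 6041 CPM in control and 12.7 to 20.6 CPM in Dicer KO libraries, although the titles give LysMcre/+ to both genotypes and another label calls the control genotype wildtype. Apoe, labelled as knocked out in all donors, measured 17.9 ± 1.9 CPM (SD, n = 3) in control and 5.61 ± 0.61 in Dicer KO with vehicle, and 4.24 ± 0.62 and 1.20 ± 0.27 with LPS. Which part of the gene the deletion removes is not given in the labels, so these reads do not check it. Every genotype difference below runs alongside that difference in Lyz2, and its part in the results was not tested. Replicate 3 of control vehicle, and among the Dicer KO vehicle libraries replicate 2, were outlying: their counts differed from those of the other libraries of the group by a chi-square of 7.87 to 13.2 per degree of freedom, against 2.21 and 2.43 between the remaining pairs.

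The 8 macrophage markers examined were detected in every group, with a summed level of 12330 to 13600 CPM (vehicle) and 12440 to 13000 CPM (LPS) in control, and 6712 to 7608 CPM (vehicle) and 9229 to 9417 CPM (LPS) in Dicer KO. That sum includes Lyz2, which averaged 5714 (vehicle) and 4060 CPM (LPS) in control and 14.1 and 18.9 CPM in Dicer KO. The other macrophage markers went both ways. Cd68 and Fcgr1 averaged more in Dicer KO in each treatment, and Adgre1, Csf1r, Itgam and Cd14 averaged less. Mertk averaged 81.7 CPM in control and 82.5 CPM in Dicer KO with vehicle, and 52.8 and 122.6 CPM with LPS. Neutrophil markers summed to 70.9 to 99.8 CPM in the vehicle groups and 115 to 136 CPM in the LPS groups. The sum of 6 T and NK cell markers was below 0.73 CPM in all vehicle libraries, 12.8 to 15.5 CPM in control LPS and 34.1 to 37.0 CPM in Dicer KO LPS, nearly all of it Lck, while Ncr1 was at 0 in every library and Cd3e reached at most 0.0751 CPM. Of 4 dendritic cell markers only Xcr1 passed the filter, and their sum was 0.530 to 1.01 CPM (vehicle) and 2.11 to 2.82 CPM (LPS) in control, and 1.44 to 3.54 CPM (vehicle) and 7.08 to 8.42 CPM (LPS) in Dicer KO. The markers of B cells, stroma, erythroid cells and mast cells summed to at most 1.28 CPM. The part of these markers in the results below was not tested. In bulk RNA, fewer cells of a type and less RNA per cell cannot be told apart.

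The start regions of Acod1 and Idh1 are shown because these genes made the largest moves in opposite directions under LPS among the 9, and because their promoters differ in CpG content. Promoter windows of 300 bases (250 before and 50 after the start) were found for 8 of the 9 genes in RefSeq (GRCm38.p6), and Idh3a had none. The Acod1 window holds 2 CpG dinucleotides, and 23.3% of the 32851 windows of that length hold as few or fewer, whereas the other 7 hold 14 (Fh1), 18 (Idh3b), 20 (Idh2), 23 (Idh1), 26 (Ogdh), 27 (Idh3g) and 27 (Mdh2) against a median of 7 over all windows. The parts of both windows that lie upstream of the annotated starts follow, 5′ to 3′ on the strand of the gene, with every CpG in capitals. The Acod1 stretch of 215 bases (chr14:103046762-103046976, plus strand) holds 1 CpG and the Idh1 stretch of 229 bases (chr1:65186501-65186729, minus strand) holds 17.
Acod1: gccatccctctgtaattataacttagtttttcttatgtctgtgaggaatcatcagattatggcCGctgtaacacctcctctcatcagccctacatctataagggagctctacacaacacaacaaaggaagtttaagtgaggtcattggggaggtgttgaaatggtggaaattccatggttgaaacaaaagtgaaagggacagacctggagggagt
Idh1: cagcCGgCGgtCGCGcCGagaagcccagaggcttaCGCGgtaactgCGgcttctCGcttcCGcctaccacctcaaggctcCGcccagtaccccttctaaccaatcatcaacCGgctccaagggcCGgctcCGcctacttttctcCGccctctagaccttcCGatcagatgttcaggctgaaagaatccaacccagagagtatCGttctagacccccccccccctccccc

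The 60 bases next to the Acod1 start (chr14:103046917-103046976, plus strand) are repeated here with a 9-base NF-kappaB core, at position -85 from the RefSeq start, and an 8-base IRF core, at position -63, in capitals.
Acod1: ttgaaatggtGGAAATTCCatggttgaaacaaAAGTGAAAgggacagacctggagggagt
NF-kappaB and the interferon regulatory factors are the transcription factors best known for switching genes on after LPS. Both cores were searched after this sequence had been read, on both strands: GGNNNTTCC occurs in 18.5% of all windows and, among the 8 genes, in Acod1 and Mdh2, and AANNGAAA occurs in 23.9% of all windows and in Acod1 and Idh3b. Of the motifs listed earlier, the full interferon-stimulated response element core GAAANNGAAA (3.44% of all windows), the gamma-activated sequence TTCNNNGAA (8.30%), the NRF1 core GCGCNNGCGC (6.23%), the ETS core CCGGAAGT (3.89%) and the ERR site TCAAGGTCA (0.423%) were in none of the 8 windows. The 10-base NF-kappaB consensus (8.46% of all windows) was in that of Idh2, and the hypoxia core ACGTG (19.6%) was in those of Acod1, Idh3g and Ogdh. These matches describe letters in a window and not binding.

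Levels below are CPM after TMM scaling (trimmed mean of M-values), which gives each library a factor computed after the most extreme genes are trimmed. Where genes are compared with each other, CPM were divided by the length of the merged exons in kilobases (kb). In control vehicle macrophages Idh1 was the most abundant of the 9 transcripts at 81.2 CPM per kb, separate from Idh3b at 27.9 and Idh3g at 27.4, which overlapped each other. Ogdh at 22.8, Mdh2 at 19.5, Idh2 at 15.9, Fh1 at 12.5 and Acod1 at 7.59 CPM per kb followed, each separate from the next, and Idh3a was lowest at 3.33 CPM per kb. In Dicer KO vehicle macrophages Idh1 again led at 73.6 CPM per kb, but Acod1 was second at 41.5 CPM per kb, overlapping Ogdh at 28.3. The next places there went to Idh3b at 24.8, Idh3g at 24.8 and Mdh2 at 24.6, each overlapping its neighbour, followed by Idh2 at 19.1, Fh1 at 8.52 and Idh3a at 3.31 CPM per kb.

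After LPS Acod1 led in both genotypes, at 3120 CPM per kb in control and 4694 CPM per kb in Dicer KO, and the other 8 genes lay between 2.81 and 27.9 CPM per kb. Idh3b, Ogdh and Mdh2 held places 2 to 4 in both LPS groups, at 27.9, 26.8 and 21.2 CPM per kb in control and 23.9, 23.8 and 23.3 CPM per kb in Dicer KO. Neighbours among these overlapped, except that Mdh2 was separate from Ogdh in control. Idh1 had dropped to place 5, at 16.3 CPM per kb in control and 14.1 CPM per kb in Dicer KO, ahead of Idh3g at 12.1 and 13.8, which it overlapped in Dicer KO. At the bottom of the control LPS order were Fh1 at 6.16, Idh2 at 5.12 and Idh3a at 4.30 CPM per kb, and of the Dicer KO LPS order Idh2 at 6.05, Fh1 at 4.96 and Idh3a at 2.81 CPM per kb. Among 13775 genes ranked by CPM per kb, Acod1 stood at place 4605 in control vehicle, 988 in Dicer KO vehicle and 7 in each LPS group. With the longest protein-coding transcript as the length instead, a choice made after seeing the data, Acod1 was in place 5 of 9 in Dicer KO vehicle, and Idh3a was in place 7 and Idh2 last in control LPS. Mdh2 was then in place 2 in both Dicer KO groups, at 60.2 CPM per kb in vehicle and 56.9 after LPS. In control it was in place 4 with vehicle, ahead of Ogdh (47.61 against 30.14), and in place 3 with LPS. The order of the 9 and the gaps between neighbours thus depend on the length used.

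**Figure D1:**
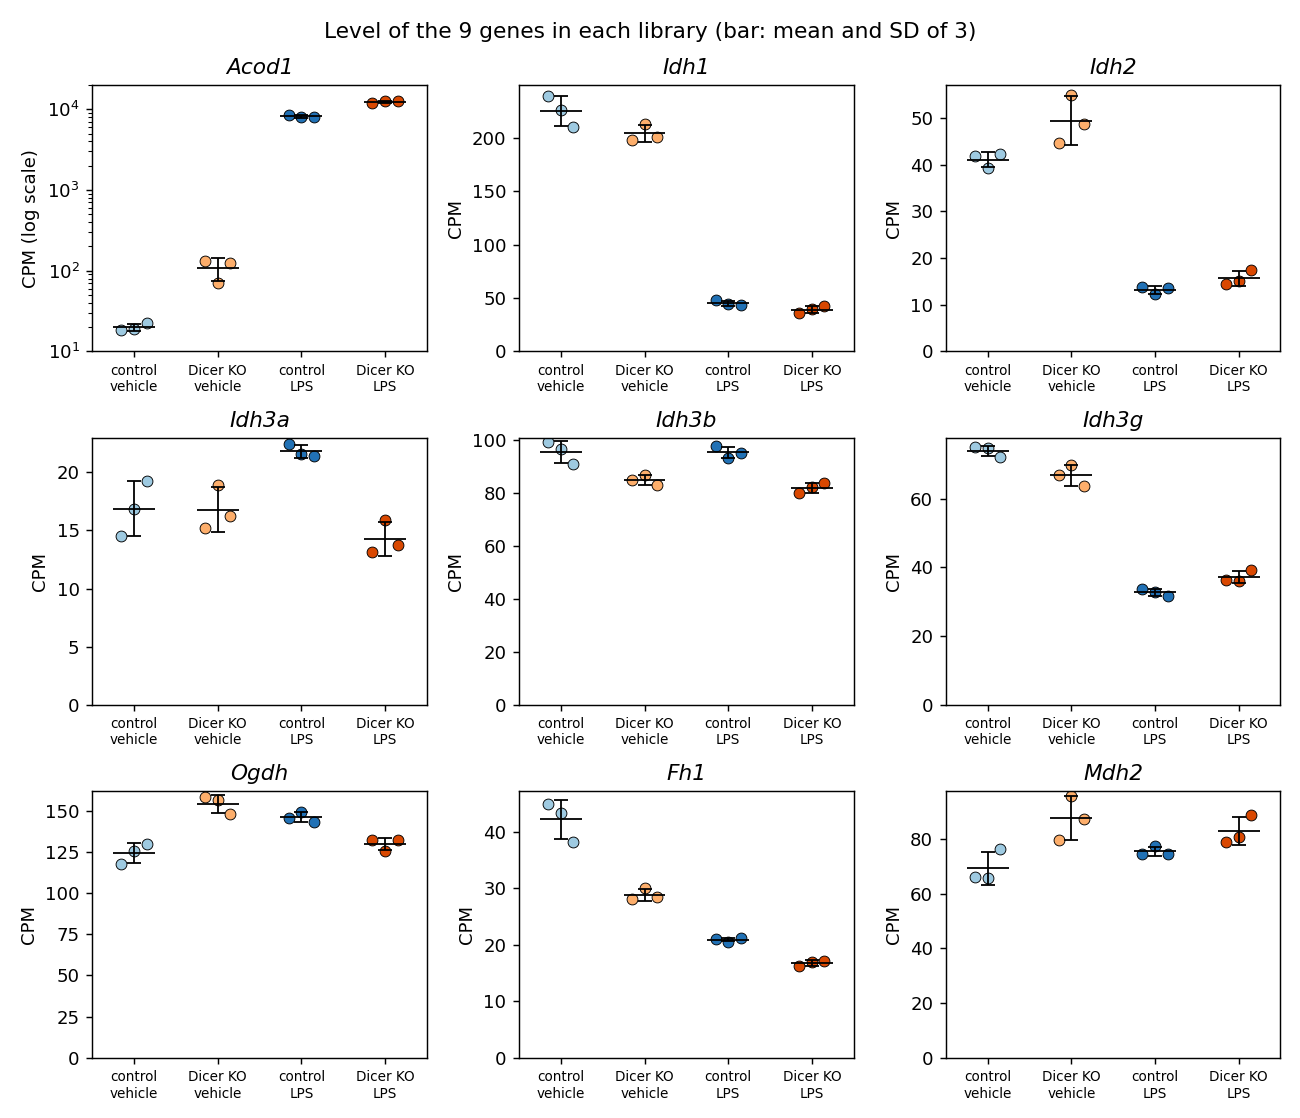
Each panel plots 1 gene in CPM (y axis, from 0 except for Acod1, which is on a log axis) for the 3 libraries of each group (dots), with the group mean and SD as bars. Acod1 rises from 18.5 to 22.3 CPM in control vehicle to 7982 to 8580 CPM in control LPS, while Idh1, Idh2, Idh3g and Fh1 are lower in both LPS groups than in both vehicle groups.

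Differences are log2 fold changes with their standard errors from edgeR's quasi-likelihood test on all 12 libraries, and rise and fall are used only at a Benjamini-Hochberg adjusted p under 0.05 over the 13837 genes tested. The comparisons share libraries: each group enters more than 1 of them, so the values below are given side by side and are not independent. Of the 9, only Acod1 was called higher in all 4 pairwise comparisons, and only Fh1 was called lower in all 4. With LPS, in control macrophages 3 of 9 rose (Acod1, Idh3a and Ogdh) and 4 fell (Idh1, Idh2, Idh3g and Fh1), where 38.0% of all genes tested rose and 41.1% fell. In Dicer KO macrophages only Acod1 rose and 5 fell (Idh1, Idh2, Idh3g, Ogdh and Fh1), where 37.4% of all genes rose and 42.7% fell. Between genotypes in vehicle, Acod1, Idh2, Ogdh and Mdh2 were higher in Dicer KO and Idh3b, Idh3g and Fh1 lower, 4 and 3 of 9, where 25.0% of all genes were higher and 21.2% lower. After LPS, Acod1, Idh2 and Idh3g were higher in Dicer KO and Idh1, Idh3a, Idh3b, Ogdh and Fh1 lower, 3 and 5 of 9, where 28.8% of all genes were higher and 27.0% lower. The LPS response itself differed between genotypes for Acod1, Idh3a and Ogdh, which were more negative in Dicer KO, and for Idh3g, which was more positive, 3 and 1 of 9, where 18.8% of all genes were lower and 14.9% higher. The 9 genes were not tested as a set.

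The median log2 fold change of the 9 genes was -0.01 for the genotype in vehicle, -0.17 for the genotype in LPS, -0.002 for LPS in control and -0.25 for LPS in Dicer KO, beside 0.01, -0.03, -0.06 and -0.10 over all genes tested. The scaling moves these values. With library totals in place of TMM the median of all genes moved by -0.126 (genotype in vehicle), -0.352 (genotype in LPS), -0.521 (LPS in control), -0.747 (LPS in Dicer KO) and -0.226 (difference of LPS responses) on the log2 scale. The split of all genes into higher and lower then went from 3459 and 2935 to 2229 and 4577 for the genotype in vehicle, and from 3983 and 3741 to 1885 and 7626 for the genotype in LPS. For LPS in control it went from 5258 and 5690 to 3066 and 8737, for LPS in Dicer KO from 5173 and 5905 to 2637 and 9623, and for the difference of the responses from 2067 and 2602 to 997 and 5136. Upper quartile scaling lay between, with 2532 and 4163, 2959 and 5254, 4196 and 6994, 4039 and 7330, and 1771 and 3020 in the same order of comparisons. A change of a member smaller than these shifts is therefore a change relative to the other genes, and the members whose direction turns are named with their values.

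**Figure D2:**
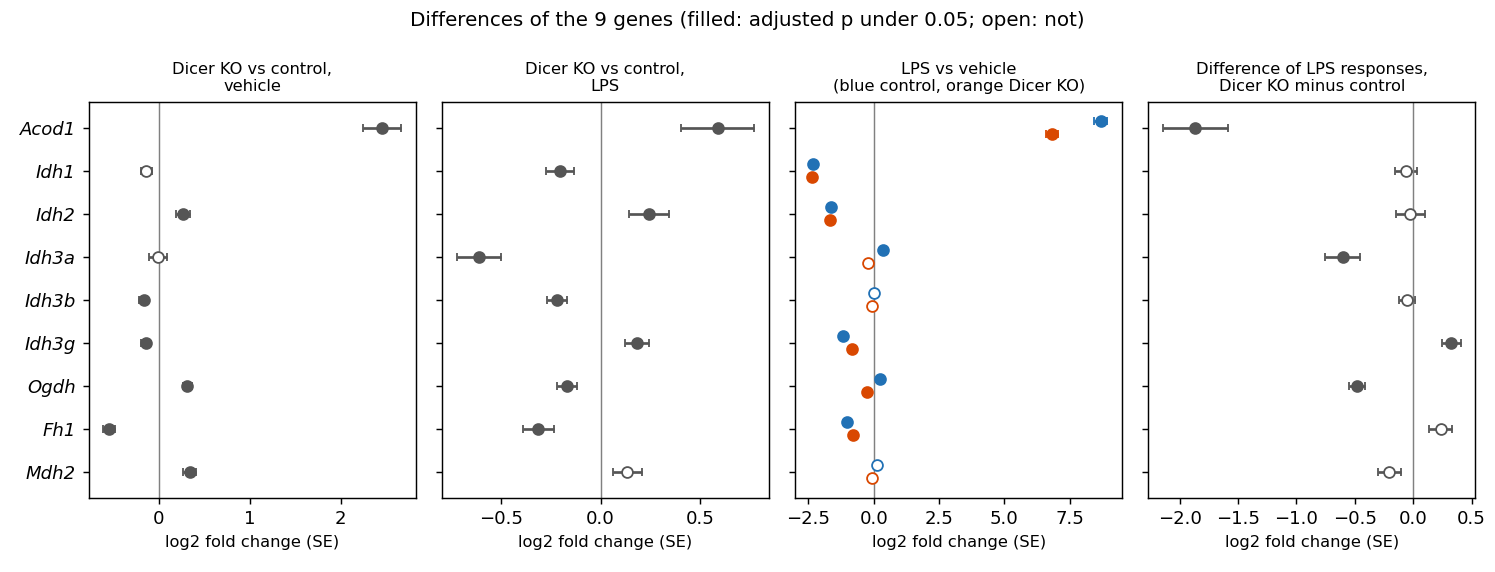
Log2 fold changes (x axis) of the 9 genes with SE bars in the 2 genotype comparisons, the 2 LPS comparisons (blue control, orange Dicer KO) and their difference, filled where the adjusted p is under 0.05. In the last panel Acod1 sits farthest to the left at -1.86, and Idh3g is the filled point on the right at 0.33.

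Acod1 (ENSMUSG00000022126, GRCm38 chr14:103046977-103056573, plus strand), the itaconate-producing enzyme, had the largest LPS response of the 9 in each genotype. It measured 18.5, 18.9 and 22.3 CPM in the control vehicle libraries and 8580, 7982 and 7988 CPM in the control LPS libraries. In Dicer KO it measured 133, 69.6 and 124 CPM in vehicle and 11790, 12478 and 12672 CPM after LPS. No group overlapped another, and the lowest Dicer KO vehicle library was replicate 2, one of the outlying pair. With LPS the level rose 411-fold in control (log2 8.68 ± 0.26 SE, adjusted p = 1.2e-10) and 113-fold in Dicer KO (6.82 ± 0.24, adjusted p = 4.06e-10). After LPS its reads were 0.725% to 0.764% of all gene counts in control and 0.840% to 0.896% in Dicer KO, and by CPM it ranked 5th of the 13837 genes tested in both. Among the 9798 genes with a mean of at least 5 CPM, its LPS response ranked 32nd from the top in control and 69th in Dicer KO.

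The genotype difference in Acod1 was larger without LPS than with it. In vehicle, Dicer KO macrophages held 5.48 times the control level (log2 2.45 ± 0.21, adjusted p = 6.83e-06), a difference of 2.78 when the outlying pair is left out. After LPS they held 1.51 times the control level (0.59 ± 0.18, adjusted p = 0.0198). With library totals it was no longer called (0.24, adjusted p = 0.266), nor with upper quartile scaling (0.45, adjusted p = 0.0571) or without the filter on low counts (0.58, adjusted p = 0.0505). Leaving out replicate 2 of control LPS (0.56, adjusted p = 0.0579), replicate 3 of control LPS (0.57, adjusted p = 0.0538) or replicate 3 of Dicer KO LPS (0.57, adjusted p = 0.0526) also ended the call. The LPS response was smaller in Dicer KO by 1.86 on the log2 scale (-1.86 ± 0.28, adjusted p = 0.000557), from a vehicle level that was already higher, and the difference was -2.19 when the outlying pair is left out.

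The NADP-dependent isocitrate dehydrogenases fell with LPS in both genotypes. Idh1 (ENSMUSG00000025950, chr1:65158616-65186500, minus strand), which makes cytosolic NADPH, measured 239, 226 and 210 CPM in control vehicle and 47.7, 44.0 and 43.7 CPM in control LPS. Its Dicer KO libraries held 198, 213 and 201 CPM in vehicle and 35.5, 39.7 and 42.2 CPM after LPS. The vehicle and LPS libraries were far apart, whereas the genotypes overlapped in vehicle and lay close to each other after LPS. It fell 4.99-fold in control (log2 -2.32 ± 0.07, adjusted p = 2.19e-16) and 5.21-fold in Dicer KO (-2.38 ± 0.07, adjusted p = 1.93e-16), with no called difference between the responses (-0.06 ± 0.09, adjusted p = 0.647). Library totals called that difference (-0.29, adjusted p = 0.0173). Between genotypes Idh1 differed by -0.14 in vehicle (adjusted p = 0.063, not called) and was lower in Dicer KO after LPS by 0.20 on the log2 scale (-0.20 ± 0.07, adjusted p = 0.0206). The vehicle difference was called under 7 of 21 alternatives, among them library totals (-0.27, adjusted p = 0.00132) and upper quartile scaling (-0.24, adjusted p = 0.00315). It was also called without the outlying pair (-0.22, adjusted p = 0.00199), and without replicate 3 of control vehicle (-0.19, adjusted p = 0.0112) or replicate 2 of Dicer KO vehicle (-0.17, adjusted p = 0.04) alone. After LPS the call was lost with DESeq2 (-0.15, adjusted p = 0.121), and without replicate 1 of control LPS (-0.17, adjusted p = 0.0875) or of Dicer KO LPS (-0.14, adjusted p = 0.123).

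Idh2 (ENSMUSG00000030541, chr7:80094846-80115392, minus strand), the mitochondrial NADPH-producing enzyme, measured 41.8, 39.3 and 42.2 CPM in control vehicle and 13.9, 12.3 and 13.6 CPM in control LPS. In Dicer KO it measured 44.7, 55.0 and 48.7 CPM in vehicle and 14.4, 15.2 and 17.4 CPM after LPS. The Dicer KO libraries all lay above the control libraries of the same treatment. With LPS it fell 3.10-fold in control (log2 -1.63 ± 0.09, adjusted p = 2.52e-12) and 3.16-fold in Dicer KO (-1.66 ± 0.09, adjusted p = 1.83e-12). It was higher in Dicer KO by 0.27 ± 0.07 in vehicle (adjusted p = 0.00657), and by 0.24 ± 0.10 after LPS (adjusted p = 0.049), a difference that library totals turn to -0.11. The vehicle call was lost with library totals and with upper quartile scaling, and the LPS call under 14 of 21 alternatives.

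The ratio of Idh1 to Idh2 (CPM per kb) was lower after LPS than in vehicle in each genotype. Such a ratio is taken within a library and does not move with its scaling. Its size depends on the gene lengths used, while its fold differences between groups do not. On the log2 scale it was 2.35 ± 0.12 (SD, n = 3) in control vehicle, 1.95 ± 0.10 in Dicer KO vehicle, 1.67 ± 0.08 in control LPS and 1.22 ± 0.06 in Dicer KO LPS. On the linear scale, with the length of merged exons, the ratio was 4.65 to 5.36 in control vehicle and 2.26 to 2.45 in Dicer KO LPS macrophages. With the longest protein-coding transcript as the length, Idh1 and Idh2 averaged 97.7 and 23.56 CPM per kb in control vehicle. In Dicer KO LPS they averaged 17.01 and 8.98 CPM per kb by that length. No group overlapped another, and Dicer KO lay below control in both treatments.

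The 3 subunits of the NAD-dependent isocitrate dehydrogenase, which work in one complex, did not move together. Idh3a (ENSMUSG00000032279, chr9:54586334-54604661, plus strand), the catalytic subunit, measured 14.5, 16.9 and 19.3 CPM in control vehicle and 22.5, 21.6 and 21.4 CPM in control LPS. In Dicer KO it measured 15.2, 18.9 and 16.2 CPM in vehicle and 13.2, 15.9 and 13.7 CPM after LPS. Control LPS lay above all the other groups, which overlapped each other. With LPS Idh3a rose by 0.37 ± 0.10 in control (adjusted p = 0.00279), a direction that library totals turn to -0.15 and a call that upper quartile scaling ends (0.15, adjusted p = 0.171), and differed by -0.23 ± 0.11 in Dicer KO (adjusted p = 0.0622, not called). The Dicer KO response was called lower under 9 of 21 alternatives, among them library totals (-0.98, adjusted p = 1.22e-07) and upper quartile scaling (-0.50, adjusted p = 0.00044). It was also called without replicate 1 (-0.23, adjusted p = 0.0379) or 3 (-0.23, adjusted p = 0.0322) of control vehicle, replicate 1 of Dicer KO vehicle (-0.30, adjusted p = 0.0271) or replicate 2 of Dicer KO LPS (-0.32, adjusted p = 0.0278). After LPS it was 1.53-fold lower in Dicer KO than in control (log2 -0.61 ± 0.11, adjusted p = 0.000126), against -0.01 ± 0.10 in vehicle (adjusted p = 0.955). The difference of the LPS responses was -0.60 ± 0.15 (adjusted p = 0.00461), and it stayed past the threshold under all 20 alternatives run.

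Idh3b (ENSMUSG00000027406, chr2:130279309-130284547, minus strand), a regulatory and structural subunit, measured 99.1, 96.5 and 90.8 CPM in control vehicle and 97.5, 93.2 and 95.2 CPM in control LPS. Dicer KO libraries held 84.7, 86.8 and 83.1 CPM in vehicle and 79.8, 82.4 and 83.5 CPM after LPS. Here the genotypes separated and the treatments overlapped. Idh3b was lower in Dicer KO by 0.17 in vehicle (log2 -0.17 ± 0.05, adjusted p = 0.00692) and by 0.22 after LPS (-0.22 ± 0.05, adjusted p = 0.00098). Its LPS response was -0.002 ± 0.048 in control (adjusted p = 0.971) and -0.05 ± 0.05 in Dicer KO (adjusted p = 0.347), neither called. Both were called lower with library totals, at -0.52 (adjusted p = 9.64e-09) and -0.80 (adjusted p = 2.5e-11). Upper quartile scaling called both lower as well, at -0.22 (adjusted p = 0.000339) and -0.31 (adjusted p = 9.86e-06).

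Idh3g (ENSMUSG00000002010, chrX:73778963-73786897, minus strand), the other regulatory subunit, measured 75.1, 74.7 and 72.3 CPM in control vehicle and 33.7, 32.9 and 31.8 CPM in control LPS. In Dicer KO it measured 67.1, 69.9 and 63.8 CPM in vehicle and 36.3, 36.1 and 39.2 CPM after LPS. The Dicer KO libraries lay below control in vehicle and above control after LPS. It fell 2.26-fold with LPS in control (log2 -1.18 ± 0.06, adjusted p = 3.76e-13) and 1.80-fold in Dicer KO (-0.85 ± 0.06, adjusted p = 6.16e-11). The responses differed by 0.33 ± 0.08 (adjusted p = 0.00341), a call that was lost with library totals (0.10, adjusted p = 0.322). Between genotypes Idh3g was lower in Dicer KO in vehicle (-0.15 ± 0.05, adjusted p = 0.0259) and higher after LPS (0.18 ± 0.06, adjusted p = 0.0144), where library totals turn it to -0.17 (adjusted p = 0.0184). The vehicle call was lost with DESeq2 (adjusted p = 0.0502) and on leaving out replicate 1 or 2 of control vehicle (-0.14 in each, adjusted p = 0.0736 and 0.0734) or replicate 1 or 3 of Dicer KO vehicle (-0.14 and -0.11, adjusted p = 0.0639 and 0.147). The LPS call was lost with upper quartile scaling (0.04, adjusted p = 0.566) and without replicate 3 of control LPS (0.16, adjusted p = 0.0611) or of Dicer KO LPS (0.14, adjusted p = 0.0813).

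The ratios between the subunits, which do not depend on scaling but whose size depends on the gene lengths used, also differed between groups. Idh3b and Idh3g stood at 0.980 to 1.04 to 1 per kb in all 6 vehicle libraries. After LPS the ratio of Idh3b to Idh3g per kb was 2.24 to 2.37 in control and 1.68 to 1.80 in Dicer KO, with no overlap between any of these groups except the vehicle pair. The log2 ratio of Idh3a to Idh3g was -3.05 ± 0.23 in control and -2.91 ± 0.13 in Dicer KO with vehicle, and it was higher after LPS, at -1.514 to -1.479 in control and -2.30 ± 0.18 in Dicer KO (SD, n = 3). That of Idh3a to Idh3b was -3.08 ± 0.27, -2.91 ± 0.14, -2.69 ± 0.02 and -3.09 ± 0.14 in control vehicle, Dicer KO vehicle, control LPS and Dicer KO LPS, so that the control LPS libraries lay above the others and the remaining groups overlapped. No test was run on the ratios.

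**Figure D3:**
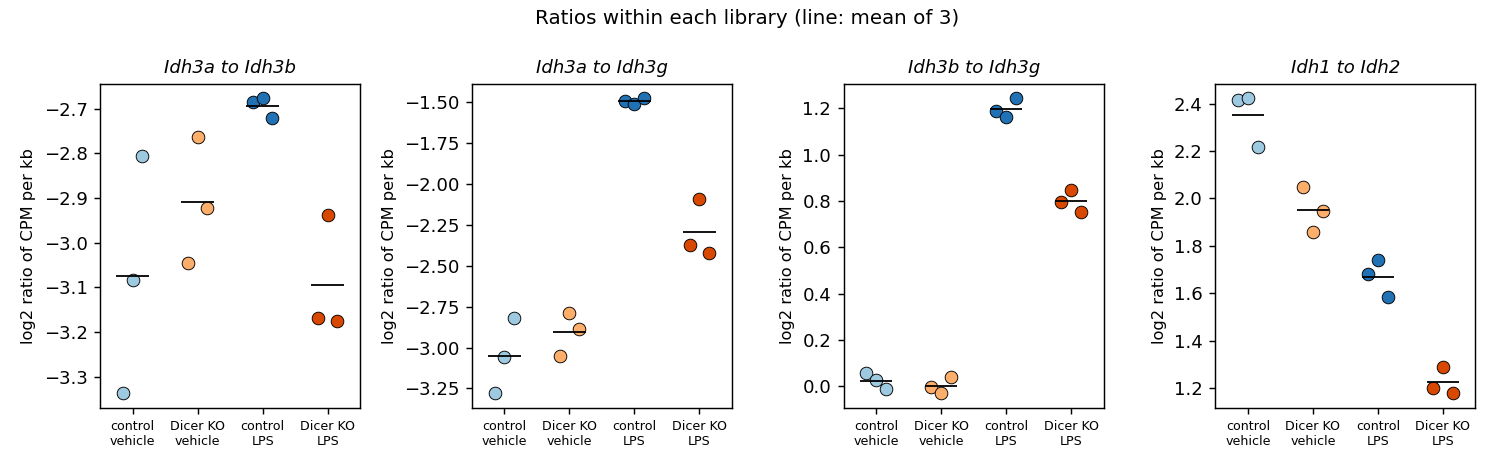
Log2 ratios of CPM per kb (y axis, not starting at 0) within each library (dots, 3 per group) with the group mean as a line. The ratio of Idh3b to Idh3g is near 0 in both vehicle groups and reaches 1.20 in control LPS and 0.80 in Dicer KO LPS, and that of Idh1 to Idh2 steps down over the 4 groups from 2.35 to 1.22.

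Ogdh (ENSMUSG00000020456, chr11:6291633-6356642, plus strand), which encodes the subunit that decarboxylates 2-oxoglutarate, moved with LPS in opposite directions in the genotypes. It measured 118, 125 and 130 CPM in control vehicle, 146, 149 and 143 CPM in control LPS, 158, 157 and 148 CPM in Dicer KO vehicle and 132, 125 and 132 CPM in Dicer KO LPS. Control LPS and Dicer KO vehicle were high and overlapped each other, and control vehicle and Dicer KO LPS were low and overlapped each other. With LPS it rose by 0.23 ± 0.05 in control (adjusted p = 0.000369), a direction that library totals turn to -0.29 (adjusted p = 3.25e-05) and that is 0.01 with upper quartile scaling (adjusted p = 0.808), and fell by 0.25 in Dicer KO (-0.25 ± 0.05, adjusted p = 0.000209). The difference of the responses was -0.48 ± 0.07 (adjusted p = 5.2e-05), and it kept its direction and its call under all 20 alternatives run. Ogdh was higher in Dicer KO in vehicle (0.31 ± 0.05, adjusted p = 6.43e-05) and lower after LPS (-0.17 ± 0.05, adjusted p = 0.00876), the latter not called by DESeq2.

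Fh1 (ENSMUSG00000026526, chr1:175600374-175625635, minus strand), fumarase, was lower with LPS and lower in Dicer KO. The control libraries held 45.0, 43.3 and 38.3 CPM with vehicle and 20.96, 20.6 and 21.1 CPM with LPS. The Dicer KO libraries held 28.1, 30.1 and 28.5 CPM with vehicle and 16.2, 17.0 and 17.2 CPM with LPS. None of these groups overlapped. Fh1 was 1.46-fold lower in Dicer KO in vehicle (log2 -0.55 ± 0.06, adjusted p = 1.84e-06) and lower by 0.31 after LPS (-0.31 ± 0.08, adjusted p = 0.00236). It fell 2.02-fold with LPS in control (-1.02 ± 0.07, adjusted p = 9.14e-11) and 1.72-fold in Dicer KO (-0.78 ± 0.07, adjusted p = 1.5e-08), and these 4 calls held under all alternatives run. The responses differed by 0.23 ± 0.10 (adjusted p = 0.0852, not called), and by 0.33 (adjusted p = 0.011) without the outlying pair or 0.30 (adjusted p = 0.0165) without control vehicle replicate 3 alone.

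Mdh2 (ENSMUSG00000019179, chr5:135778480-135790398, plus strand), which closes the cycle by oxidising malate, measured 66.0, 65.7 and 76.3 CPM in control vehicle and 74.4, 77.4 and 74.6 CPM in control LPS. Its Dicer KO libraries held 79.8, 95.9 and 87.3 CPM in vehicle and 78.9, 81.0 and 88.7 CPM after LPS. Dicer KO lay above control in each treatment, and the treatments overlapped within each genotype. It was higher in Dicer KO in vehicle (0.34 ± 0.07, adjusted p = 0.000719), and after LPS the difference was 0.13 ± 0.07 (adjusted p = 0.128, not called), which library totals turn to -0.22 (adjusted p = 0.0131) and which is called at 0.13 without the outlying pair (adjusted p = 0.0323). Its LPS responses were 0.12 ± 0.07 in control (adjusted p = 0.12) and -0.08 ± 0.07 in Dicer KO (adjusted p = 0.304), neither called. Library totals turn the former to -0.40 (adjusted p = 5.1e-05), while it is 0.20 and called without replicate 3 of control vehicle (adjusted p = 0.0111). The Dicer KO response was called lower with library totals (-0.83, adjusted p = 3.67e-09) and with upper quartile scaling (-0.34, adjusted p = 0.000193). The difference of the responses was called with library totals as well (-0.43, adjusted p = 0.00223). Without the outlying pair the difference of its responses was called (-0.21, adjusted p = 0.0415), as it was without control vehicle replicate 3 alone (-0.28, adjusted p = 0.0192) or replicate 1 of Dicer KO vehicle (-0.27, adjusted p = 0.0398), against -0.20 with all libraries (adjusted p = 0.131).

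Around these genes, the other 11 genes of the cycle moved in both directions. The counts of this and the following lists stand beside the shares of all genes given above for each comparison: 38.0% higher and 41.1% lower for LPS in control, 37.4% and 42.7% for LPS in Dicer KO, 25.0% and 21.2% for the genotype in vehicle, and 28.8% and 27.0% for the genotype after LPS. For the difference of the LPS responses the shares were 14.9% higher and 18.8% lower. Counts with library totals or upper quartile scaling stand beside the splits of all genes given above for that scaling. With LPS in control 4 of the 11 rose and 3 fell (median log2 0.04, all genes -0.06), and in Dicer KO 2 rose and 3 fell (median 0.07, all genes -0.10). With library totals the counts became 2 and 8 in control and 1 and 10 in Dicer KO. Dld, the dihydrolipoamide dehydrogenase shared by the 2-oxoglutarate and pyruvate dehydrogenase complexes, rose by 1.34 ± 0.06 in control (adjusted p = 5.52e-14) and 1.17 ± 0.06 in Dicer KO (adjusted p = 4e-13). Suclg2, a subunit of GTP-forming succinyl-CoA ligase, fell by 1.38 in control (-1.38 ± 0.10, adjusted p = 4.46e-10) and by 1.59 in Dicer KO (-1.59 ± 0.11, adjusted p = 7.83e-11). Cs, citrate synthase at the entry of the cycle, rose by 0.67 in control (adjusted p = 4.87e-10) and by 0.52 in Dicer KO (adjusted p = 1.99e-08), which library totals turn to -0.23 in Dicer KO.

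Dlst, the E2 subunit that works with the Ogdh product, was the only one of the 11 whose LPS response differed between genotypes (-0.46 ± 0.07, adjusted p = 4.08e-05). It averaged 81.8 ± 2.4 CPM (SD, n = 3) in control vehicle, 119.0 ± 3.3 in control LPS, 89.96 ± 0.92 in Dicer KO vehicle and 94.9 ± 3.8 in Dicer KO LPS. Of all genes tested, 18.8% had a lower and 14.9% a higher response in Dicer KO. With library totals 8 of the 11 had a lower response, where 5136 of all 13837 genes did. With upper quartile scaling 4 of the 11 had one, where 3020 of all genes did. Between genotypes in vehicle 5 of the 11 were higher and 1 lower in Dicer KO, among them Sdha, the flavoprotein of succinate dehydrogenase (0.33 ± 0.05, adjusted p = 3.58e-05). Sdhd, which anchors succinate dehydrogenase in the membrane, was the 1 that was lower (-0.28 ± 0.06, adjusted p = 0.000655). With library totals, as with upper quartile scaling, 2 were higher and 1 lower. After LPS 4 were higher and 2 lower in Dicer KO, the lower ones being Dlst (-0.33 ± 0.05, adjusted p = 1.38e-05) and Sdhd (-0.24 ± 0.06, adjusted p = 0.00182), but none was higher and 10 were lower with library totals, and none and 4 with upper quartile scaling.

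**Figure D4:**
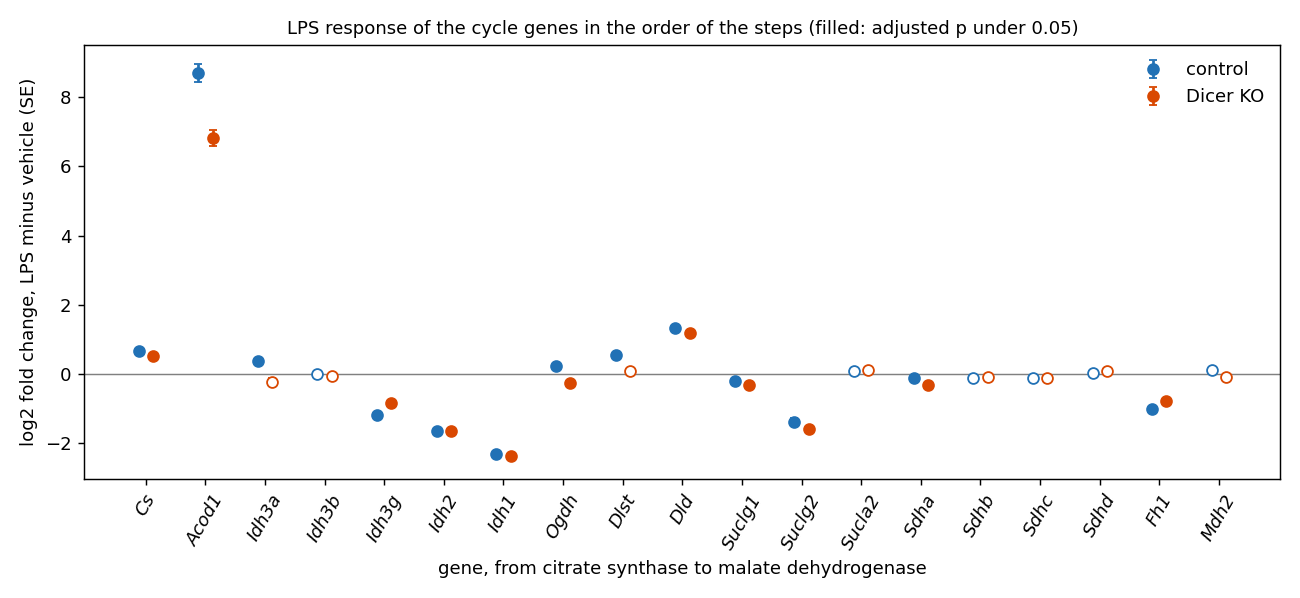
LPS minus vehicle log2 fold changes (y axis) with SE bars for Acod1 and genes of the cycle in the order of its steps, control in blue and Dicer KO in orange, filled where the adjusted p is under 0.05. Acod1 stands alone above 6, Dld is the next highest, and Idh3g, Idh2, Idh1, Suclg2 and Fh1 are below 0 in both genotypes.

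Pyruvate enters the cycle through the pyruvate dehydrogenase complex, which kinases (Pdk1 to Pdk4) switch off and phosphatases (Pdp1, Pdp2 and the regulator Pdpr) switch on. Of 14 genes of this entry 13 were tested, and Pdk4 did not pass the filter. With LPS 5 rose and 5 fell in control and 3 rose and 8 fell in Dicer KO, with medians of 0.07 and -0.50, and with library totals 1 rose and 10 fell in control and 1 rose and 12 fell in Dicer KO. Pdk3 rose by 2.63 ± 0.11 in control (adjusted p = 9.36e-13) and by 2.69 ± 0.11 in Dicer KO (adjusted p = 1.21e-12), while Pdk2 fell by 2.43 (-2.43 ± 0.12, adjusted p = 1.29e-12) and by 2.75 (-2.75 ± 0.16, adjusted p = 8.64e-12). Pdp1 fell by 1.499 in control (-1.499 ± 0.09, adjusted p = 2.78e-11) and by 2.13 in Dicer KO (-2.13 ± 0.10, adjusted p = 2.64e-13).

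The LPS response of this entry was lower in Dicer KO for 5 of the 13 and higher for none, where 18.8% of all genes were lower and 14.9% higher. The median was -0.28 for the list and -0.04 for all genes. The smallest adjusted p-values were those of Pdha1, a subunit of the E1 enzyme (-0.42 ± 0.07, adjusted p = 0.000141), Pdpr (-0.75 ± 0.15, adjusted p = 0.000623) and Pdp1 (-0.63 ± 0.14, adjusted p = 0.0019). Pdha1 averaged 73.0, 79.5, 69.0 and 56.1 CPM in control vehicle, control LPS, Dicer KO vehicle and Dicer KO LPS. Between genotypes, 5 of the 13 were higher and 3 lower in Dicer KO in vehicle, with Pdk2 (-0.77 ± 0.10, adjusted p = 6.25e-06) and Pdk1 (-0.70 ± 0.11, adjusted p = 0.000183) lower and Pdhb higher (0.26 ± 0.05, adjusted p = 0.000721). After LPS 1 was higher and 6 were lower, led by Pdha1 (-0.50 ± 0.05, adjusted p = 1.16e-07) and Pdpr (-1.04 ± 0.12, adjusted p = 4.87e-07). The balance in vehicle turned to 3 higher and 6 lower with library totals and 4 and 6 with upper quartile scaling, and after LPS these gave 0 and 11, and 0 and 9.

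Citrate and malate also leave the mitochondrion, and of 8 genes for their cytosolic handling and the malic enzymes 7 were tested, without Me3. With LPS 2 rose and 3 fell in control and 1 rose and 5 fell in Dicer KO. Slc25a1, the citrate carrier, rose by 1.02 ± 0.06 in control (adjusted p = 5.53e-12) and by 0.74 ± 0.06 in Dicer KO (adjusted p = 1.12e-09), which is -0.01 with library totals in Dicer KO. Aco1, the cytosolic aconitase, fell by 0.89 (-0.89 ± 0.08, adjusted p = 6.76e-09) and by 1.35 (-1.35 ± 0.08, adjusted p = 4e-11). The response was lower in Dicer KO for 5 of the 7 and higher for none, where 18.8% of all genes tested had a lower and 14.9% a higher response. The count of lower responses was also 5 with library totals, where 5136 of all 13837 genes had one, and with upper quartile scaling, where 3020 did. Among the 5 were Me2, the mitochondrial NAD-dependent malic enzyme (-0.98 ± 0.11, adjusted p = 3.66e-06), Acly, ATP citrate lyase (-0.57 ± 0.08, adjusted p = 4.8e-05), and Acss2, which activates acetate (-1.09 ± 0.16, adjusted p = 5.53e-05). Me2 averaged 25.1 ± 1.1 CPM in control vehicle, 20.4 ± 2.0 in control LPS, 26.3 ± 1.3 in Dicer KO vehicle and 10.9 ± 0.2 in Dicer KO LPS. Between genotypes 3 of the 7 were higher and none lower in Dicer KO in vehicle, and 1 was higher and 5 were lower after LPS. In vehicle both library totals and upper quartile scaling gave 1 higher and 1 lower, and with LPS in control library totals gave 1 rise and 5 falls.

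Of 5 mitochondrial carriers of cycle intermediates 4 were tested, without Slc25a21, and with LPS 2 rose and 2 fell in each genotype. The aspartate-glutamate carriers went opposite ways. Slc25a12 rose by 1.87 ± 0.06 in control (adjusted p = 8.4e-16) and by 2.09 ± 0.06 in Dicer KO (adjusted p = 1.23e-16), and Slc25a13 fell by 2.20 (-2.20 ± 0.10, adjusted p = 2.89e-13) and by 1.70 (-1.70 ± 0.10, adjusted p = 7.84e-12). Slc25a10, the dicarboxylate carrier of malate and succinate, rose by 1.14 ± 0.07 in control (adjusted p = 1.86e-11) and by 0.65 ± 0.07 in Dicer KO (adjusted p = 9.07e-08), which library totals turn to -0.10 in Dicer KO. The responses were higher in Dicer KO for 2 of the 4 and lower for 1, Slc25a10 (-0.49 ± 0.10, adjusted p = 0.000881), where 14.9% of all genes had a higher and 18.8% a lower response. With library totals the responses were higher for 0 and lower for 2, and with upper quartile scaling 1 and 1. In vehicle 1 of the 4 was higher in Dicer KO and none lower, and after LPS 2 were higher and 1 lower, with Slc25a12 higher in both (0.49 ± 0.06, adjusted p = 2.72e-06, and 0.70 ± 0.05, adjusted p = 4.25e-09). Library totals gave 1 higher and 2 lower after LPS.

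Glutamine is the other main carbon source of the cycle, entering as glutamate and 2-oxoglutarate. All 8 genes of this entry were tested, and with LPS 5 fell in each genotype, while none rose in control and 2 rose in Dicer KO. With library totals 0 rose and 7 fell in control and 0 rose and 8 fell in Dicer KO, and with upper quartile scaling 0 rose and 6 fell in each. Got1, the cytosolic aspartate aminotransferase, fell by 2.05 in control (-2.05 ± 0.07, adjusted p = 6.11e-15) and by 1.94 in Dicer KO (-1.94 ± 0.07, adjusted p = 1.54e-14). Glud1, glutamate dehydrogenase, fell by 1.01 (-1.01 ± 0.05, adjusted p = 3.59e-12) and by 1.02 (-1.02 ± 0.06, adjusted p = 3.15e-12), and Slc1a5, a glutamine importer, by 1.35 (-1.35 ± 0.12, adjusted p = 1.46e-08) and by 1.62 (-1.62 ± 0.14, adjusted p = 5.71e-09). Slc38a2, another amino acid importer, fell less in Dicer KO (difference 0.73 ± 0.18, adjusted p = 0.00744), and Gpt2, the mitochondrial alanine aminotransferase, fell more (-0.54 ± 0.16, adjusted p = 0.012). Those were the 2 of the 8 whose responses differed, where 14.9% of all genes had a higher and 18.8% a lower response. In vehicle 1 of the 8 was higher in Dicer KO and none lower, and after LPS 2 were higher and 2 lower, but with library totals these counts were 0 and 3 in vehicle and 1 and 6 after LPS. With upper quartile scaling they were 0 and 2, and 1 and 4.

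Of 8 genes that regulate Acod1, move or degrade itaconate, or sense its relatives, 6 were tested, and the receptors Oxgr1 and Sucnr1 did not pass the filter. With LPS 4 of the 6 rose in each genotype and none fell, with medians of 1.67 in control and 1.78 in Dicer KO, although library totals call 2 lower in Dicer KO. Irf1, a transcription factor known to be needed for full Acod1 expression, averaged 72.2 ± 2.1 CPM (SD, n = 3) in control vehicle, 150.6 ± 22.3 in Dicer KO vehicle, 335.8 ± 15.5 in control LPS and 801.6 ± 29.0 in Dicer KO LPS. It was higher in Dicer KO in vehicle by 1.06 ± 0.08 (adjusted p = 2.06e-08) and after LPS by 1.25 ± 0.08 (adjusted p = 6.56e-10), and its LPS response did not pass the threshold for a difference (0.19 ± 0.11, adjusted p = 0.208). Slc13a3, a dicarboxylate importer that takes up itaconate, rose with LPS by 3.07 ± 0.09 in control (adjusted p = 2.48e-16) and by 3.12 ± 0.08 in Dicer KO (adjusted p = 5.9e-17). It was also higher in Dicer KO in vehicle (0.76 ± 0.10, adjusted p = 1.09e-05) and after LPS (0.80 ± 0.07, adjusted p = 1.89e-08).

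Rab32, a GTPase that directs itaconate to vacuoles holding bacteria, rose by 2.47 ± 0.06 in control (adjusted p = 4.55e-17) and by 2.02 ± 0.06 in Dicer KO (adjusted p = 7.29e-16), less in Dicer KO by 0.46 on the log2 scale (-0.46 ± 0.09, adjusted p = 0.000559). Irf8, a myeloid transcription factor, was the 1 of the 6 with a stronger response in Dicer KO (0.41 ± 0.10, adjusted p = 0.00315), where 14.9% of all genes had a higher response. Library totals called 0 of the 6 stronger. Clybl, a mitochondrial lyase that cleaves citramalyl-CoA in itaconate breakdown, was lower in Dicer KO in vehicle (-0.84 ± 0.17, adjusted p = 0.000591), with 5.18 ± 1.17 CPM against 9.32 ± 1.48 CPM in control. Between genotypes 3 of the 6 were higher in Dicer KO and 1 lower in vehicle, and 3 higher and 2 lower after LPS.

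A last list covers the handling of 2-hydroxyglutarate and 2-oxoglutarate, and it also holds Bckdk, which acts on another dehydrogenase. Of its 5 genes 4 were tested, without Ogdhl. With LPS 1 rose and 3 fell in each genotype. Adhfe1, which makes D-2-hydroxyglutarate from 2-oxoglutarate, rose by 3.54 ± 0.12 in control (adjusted p = 4.67e-15) and by 3.64 ± 0.14 in Dicer KO (adjusted p = 1.37e-14), from 1.37 to 16.01 CPM and from 1.09 to 13.6 CPM. D2hgdh, which oxidises D-2-hydroxyglutarate back, fell by 1.82 (-1.82 ± 0.13, adjusted p = 1.97e-10) and by 2.24 (-2.24 ± 0.16, adjusted p = 1.76e-10). Bckdk, the kinase of branched-chain keto acid dehydrogenase, fell by 0.86 (-0.86 ± 0.07, adjusted p = 2.44e-09) and by 1.11 (-1.11 ± 0.08, adjusted p = 1.17e-10). In Dicer KO 1 of the 4 was lower in vehicle and 2 after LPS. By edgeR 0 responses were called different, with 1 at an unadjusted p under 0.05 and 0 called by DESeq2, where 14.9% of all genes had a higher and 18.8% a lower response. With library totals 2 were lower in vehicle and 3 after LPS, and 2 responses were lower in Dicer KO. Upper quartile scaling gave 1, 3 and 1. Of the other counts of 0 in these lists, 3 also held 1 gene at an unadjusted p under 0.05 in that direction, and DESeq2 called 1 glutamine gene higher with LPS in control.

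The genes whose pattern over the 12 libraries was most like that of Acod1 were found by the root mean square distance of log2 CPM, each gene centred on its own mean, among 9797 genes with a mean of at least 5 CPM. They were Ifi205 (0.479), Gbp5 (0.499), Heatr9 (0.523), AA467197 (0.625) and Ccl5 (0.675), where the spread of Acod1 about its own mean was 3.99 on the same scale. In the same order, their log2 differences between Dicer KO and control were 3.70, 2.38, 2.55, 0.798 and 1.37 in vehicle. After LPS these were 1.17, 0.667, -0.341, 1.01 and 0.106. The genes nearest to Idh3a were Arhgap21 (0.0779), Incenp (0.0895) and Slc35c1 (0.106), against its own spread of 0.25, and those nearest to Idh1 were Mbp (0.0902), Plxnc1 (0.106) and Arhgap39 (0.117), against 1.18. These distances describe 12 libraries in 4 groups.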

How the data were processed

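The authors deposited 1 table of raw read counts per gene for each of 12 libraries, by Ensembl identifier. A stranded mRNA kit was used, per the labels' protocols, and the submitters' processing notes name STAR 2.5, DESeq2, mm10 and GRCm38.p5. How reads were assigned to genes (program, strand setting, gene models) is not given in the sources used here. Of 46078 identifiers, 45229 matched GENCODE M21 (GRCm38), which gave symbols, coordinates and exon lengths, and unmatched identifiers held 0.141% of counts. Rows that name no gene stayed out: 45.8% to 46.8% of reads were in no feature, 0.626% to 0.768% ambiguous and 9.86% to 11.6% not unique. Count precision is set by 16172600 to 18886948 gene counts per library.

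Counts were analysed with edgeR 4.0.16 (R 4.3.3): filterByExpr, TMM, 1 mean per group over all 12 libraries, robust quasi-likelihood tests and Benjamini-Hochberg adjustment over 13837 genes, called at 0.05. The standard error is the log2 fold change divided by the square root of F. Data were simulated for the genotype comparison in vehicle, with 12243 genes, 200 of them changed, and a spread between libraries of 6% for every gene. On these the test called 98% of changes of 1, 76% of changes of 0.5 (log2) and 0.0747% of unchanged genes. The real comparison had many more genes called and had outlying libraries, so these rates need not hold for it. Alternatives were DESeq2 1.42.0, library totals, upper quartile scaling, no filter, a stricter filter (5 CPM in 3 libraries), a replicate block, limma-voom 3.58.1, the groups compared alone, leaving out the outlying pair of libraries (replicate 3 of control vehicle and replicate 2 of Dicer KO vehicle), and leaving out each library. Promoter windows came from RefSeq (GRCm38.p6). The 9 genes and all lists were chosen with earlier results of these data known, and lists name up to 3 genes with the smallest adjusted p in a comparison, beside the 9, Dicer1 and Lyz2. Some results of these lists are not reported here.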

Additional observations from a re-analysis of the deposited data

Results flagged for a closer look

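The LPS response of 4 of the 9 genes differed between Dicer KO and control macrophages by the test of the difference itself (edgeR, adjusted over all genes tested), where the response was lower in Dicer KO for 18.8% and higher for 14.9% of all genes tested. The difference, Dicer KO minus control on the log2 scale, was -1.86 for Acod1 (adjusted p = 0.000557), which rose in both genotypes. It was -0.605 for Idh3a (adjusted p = 0.00461), which rose in control and was not called in Dicer KO. For Idh3g it was 0.328 (adjusted p = 0.00341), with a fall in both genotypes. For Ogdh it was -0.48 (adjusted p = 5.2e-05), with a rise in control and a fall in Dicer KO. The rise of Idh3a and of Ogdh in control turned with library totals, while their differences between genotypes did not.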

How the results depend on the processing

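Of 45 results on single genes (9 genes in 5 comparisons), 22 kept direction and call under every alternative run, as did 834 of 936 values. The falls of Idh1, Idh2, Idh3g and Fh1 with LPS, and Acod1 in all comparisons but the genotype difference after LPS, were among the 22. With library totals, none of the 9 was higher in Dicer KO after LPS (0, also 0 with upper quartile scaling, and 0 to 3 on leaving out 1 library), 1 rose and 7 fell with LPS in control (1 rose with upper quartile scaling), 8 fell in Dicer KO (8 with upper quartile scaling), and 0 of the responses were higher and 6 lower in Dicer KO. The splits of all genes under these scalings are those given above. DESeq2 called 3 lower in Dicer KO after LPS, where it called 3115 of all 13837 genes lower. Without the outlying pair of libraries 2 responses were higher in Dicer KO (1 to 2 on leaving out 1 library). Acod1 after LPS differed between genotypes by 0.24 with library totals, 0.45 with upper quartile scaling, 0.58 without a filter and 0.56 to 0.62 on leaving out 1 library.

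Direction turned with library totals for Idh2 (-0.11), Idh3g (-0.17) and Mdh2 (-0.22, and -0.00676 with upper quartile scaling) between genotypes after LPS, and for Idh3a (-0.15), Ogdh (-0.29) and Mdh2 (-0.40, and -0.095 with upper quartile scaling) with LPS in control; this follows from the shift of the median of all genes. Other turns were of values near 0. Idh3a in vehicle was 0.0037 without the pair and -0.11 to 0.095 on leaving out 1 library. Idh3b with LPS in control was 0.028 with DESeq2, 0.0012 with only the groups compared and -0.037 to 0.034 on leaving out 1 library, and 0.028 with DESeq2 in Dicer KO. Its LPS response was called lower in each genotype with library totals and with upper quartile scaling. The difference of responses was 0.014 for Idh1, 0.037 for Idh2 and 0.0007985 for Idh3b without the pair, and for Idh2 0.024 with DESeq2 and -0.11 to 0.054 on leaving out 1 library.

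The deviations of same-numbered replicates from their group means had correlations of -0.204 to 0.163. With 3 libraries per group, outlying ones among them, these correlations cannot tell if the numbers pair the libraries. With a replicate block, Idh2 after LPS lost its genotype call (0.24, adjusted p = 0.0554), Idh3a with LPS in Dicer KO gained one (-0.23, adjusted p = 0.0459), and no other call on the 9 genes changed. Calls that changed included Idh3a with LPS in Dicer KO (gained under 9 of 21 alternatives), the difference of responses of Mdh2 (gained under 4 of 20) and its genotype difference after LPS (gained without the outlying pair), Idh2 after LPS (lost or turned under 14 of 21), and the genotype difference in vehicle of Idh3g (lost under 5 of 21 alternatives) and of Idh1 (gained under 7 of 21), and that of Idh1 after LPS (lost under 3 of 21).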
